A study of Mus musculus with 1 sample.

Results

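Megakaryocyte progenitors that already express the platelet receptor genes were examined in single-cell RNA-seq of Lin-Kit+ bone marrow cells, that is, cells from femora and tibiae without surface markers of mature blood lineages and with the stem cell factor receptor Kit. The members were selected on measured values: a cell was kept when it held at least 3 unique molecules (UMIs) of Pf4, at least 1 UMI of 2 or more of the 5 receptor or adhesion genes Treml1, Gp9, Gp1bb, Gp5 and Vwf, and fewer than 20 UMIs of the erythroid gene Car1. Of 7645 cells that passed the study's limits on depth and quality, 611 met this gate, or 7.99% (exact Clopper-Pearson 95% interval 7.39 to 8.62). The other 7034 cells served as the contrast. There was 1 library, from control mice of the C57BL/6 strain that carried Brd9 fl/fl, a Brd9 gene flanked by recombination sites and left intact because no Cre was present. The mice had received polyinosinic-polycytidylic acid (pIpC), an inducer of interferon that also switches on Mx1-Cre where it is present, at 20 mg/kg in 3 doses given on alternate days, and cells were taken 8 weeks later. The labels name a CD45.2+ donor and a CD45.1+ recipient treated from 4 weeks after transplant, whereas the study's methods describe primary mice for this experiment, and which of these applies was not settled. With 1 library no test between samples was possible, so that every interval below covers counting error only and no value has a replicate check.

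Megakaryocytes are the bone marrow cells that shed platelets. They arise from stem cells, partly through progenitors shared with the red cell lineage, and are driven by the cytokine thrombopoietin. As they mature they become polyploid, fill granules with clotting proteins and chemokines, and load the surface with the receptors by which a platelet later senses von Willebrand factor, collagen, fibrinogen, thrombin, ADP and thromboxane. Pf4, platelet factor 4, is a chemokine stored in alpha granules. Gp9, Gp1bb, Gp5 and Gp1ba encode the subunits of the GPIb-IX-V complex, which binds the adhesive protein encoded by Vwf, and Treml1 encodes a receptor of alpha granule membranes. In mouse marrow, Vwf and several of these genes are also known from a platelet-biased subset of stem cells, so that stem cells are the closest background for them.

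The promoters of Pf4 and of the 4 subunit genes of the GPIb-IX-V complex are shown because Pf4, Gp9, Gp1bb and Gp5 were used to choose the cells and Gp1ba encodes the remaining subunit of the complex. Each is the RefSeq window of GRCm38.p6 from 250 bases before to 50 bases after the annotated start, 5′ to 3′ on the gene's strand. Capitals mark matches on either strand to a GATA core, spelled AGATAA in its first form and TGATAA in its second, or to an ETS core, the site type of Fli1 and its relatives, spelled AGGAAG in its first form and CGGAAG in its second. A match on the opposite strand is printed as its reverse complement, for example CTTCCT for an ETS core.
Pf4, chr5:90772185-90772484, plus strand: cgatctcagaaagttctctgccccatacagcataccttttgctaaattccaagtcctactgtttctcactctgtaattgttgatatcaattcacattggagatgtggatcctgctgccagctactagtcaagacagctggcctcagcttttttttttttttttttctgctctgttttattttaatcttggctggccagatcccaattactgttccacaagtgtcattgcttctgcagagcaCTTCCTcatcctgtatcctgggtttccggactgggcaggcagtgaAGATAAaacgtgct
Gp9, chr6:87777820-87778119, plus strand: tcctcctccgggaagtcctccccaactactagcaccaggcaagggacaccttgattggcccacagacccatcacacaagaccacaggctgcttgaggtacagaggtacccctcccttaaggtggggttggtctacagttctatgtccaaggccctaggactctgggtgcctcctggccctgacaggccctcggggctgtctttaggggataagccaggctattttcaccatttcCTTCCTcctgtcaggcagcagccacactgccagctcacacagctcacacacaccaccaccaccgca
Gp1bb, chr16:18622354-18622653, minus strand: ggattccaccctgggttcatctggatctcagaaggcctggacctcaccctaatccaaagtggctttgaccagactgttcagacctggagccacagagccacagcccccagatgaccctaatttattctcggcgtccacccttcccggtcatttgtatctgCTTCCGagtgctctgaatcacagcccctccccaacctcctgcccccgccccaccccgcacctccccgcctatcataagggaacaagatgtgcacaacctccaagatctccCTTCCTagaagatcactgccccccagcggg
Gp5, chr16:30310732-30311031, minus strand: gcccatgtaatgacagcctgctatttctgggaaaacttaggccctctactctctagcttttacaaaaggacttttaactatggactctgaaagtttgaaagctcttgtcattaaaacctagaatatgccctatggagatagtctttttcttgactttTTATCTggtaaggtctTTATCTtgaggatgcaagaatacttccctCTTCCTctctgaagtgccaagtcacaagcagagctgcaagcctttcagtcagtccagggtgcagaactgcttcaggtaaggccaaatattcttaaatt
Gp1ba, chr11:70638872-70639171, plus strand: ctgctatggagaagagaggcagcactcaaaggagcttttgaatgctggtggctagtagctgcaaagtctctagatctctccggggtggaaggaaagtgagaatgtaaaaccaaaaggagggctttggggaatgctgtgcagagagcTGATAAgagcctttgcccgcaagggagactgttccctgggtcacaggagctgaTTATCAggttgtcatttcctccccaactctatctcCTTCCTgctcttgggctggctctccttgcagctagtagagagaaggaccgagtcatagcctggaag
Each of the 5 windows held at least 1 ETS core, and those of Pf4, Gp5 and Gp1ba also held a GATA core. Gp5 held 2 GATA cores, with first bases at positions -93 and -77, and Gp1ba held 2, at -104 and -51. Over all 32851 windows in the table, 46.5% held an ETS core and 18.6% a GATA core. A match describes letters and is not a bound site. Among the 25 genes with the highest ratio described below, 20 had a window, of which 13 held an ETS core (65.0%) and 3 a GATA core (15.0%). These shares count a gene when any of its windows matched, over 22 windows, whereas the shares over all windows count each window. The 2 measures are therefore not alike. Treml1 had a window without either motif in this search and is not shown, and no window was used for Vwf.

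Levels are given as CPM, the UMIs of a gene summed over a group of cells, divided by all UMIs of that group and multiplied by 1000000. The gated cells held 11302156 UMIs, with a median of 17401 per cell and a range of 3808 to 49075, against a median of 18867 in all other cells. A gene was called past 2-fold when its CPM ratio was at least 2, or at most 0.5, and the exact conditional binomial interval of the ratio left out 1. Of 13479 genes with at least 50 UMIs, 1588 (11.8%) were past 2-fold higher and 1235 (9.16%) past 2-fold lower in gated cells than in all other cells. Because this contrast chose the cells, these counts and the values below describe the population and do not test it.

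The 6 genes that admitted cells stood far above the rest. Pf4 ranged from 3 to 902 UMIs per gated cell with a median of 64, and its level was 5628 CPM against 24.3 CPM in all other cells. Treml1 was at 125 CPM against 1.88, Gp9 at 108.6 against 8.11, and Gp5 at 108.1 against 8.12. Vwf was at 230.5 CPM against 8.81. Gp1bb was at 30.4 CPM against 0.263, and its annotated span lies on the same strand as the neighbouring gene Sept5 and overlaps it, so that reads in shared exons cannot be assigned to Gp1bb alone. The receptor genes were unevenly detected: at least 1 UMI was found for Vwf in 84.6% of gated cells, for Gp5 in 79.1%, for Gp9 in 78.9%, for Treml1 in 70.2% and for Gp1bb in 37.6%. Car1 was at 43.4 CPM against 872 CPM in all other cells, and 303 of the 611 cells held no Car1 UMI.

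Platelet transcripts were also found at low shares in cells of another lineage. In 2740 cells outside the gate with at least 10 UMIs each of the neutrophil granule genes Elane and Mpo, a cell type that should lack platelet genes and with a median depth of 22002 UMIs, Pf4 was detected in 14.6% of cells, Vwf in 2.66% and Treml1 in 0.766%. When every cell was thinned to 5000 UMIs, which left out 2 gated cells, Pf4 was found in 97.7% of gated cells and 4.31% of these neutrophil-lineage cells, and Vwf in 59.6% and 0.731%. Of these neutrophil-lineage cells 139 were doublet calls (5.07%), and the parts of free RNA and of mixed barcodes in these shares were not tested. As the 6 genes admitted the gated cells, and the 33 cells that met both gates were counted as gated, the order of these shares was fixed by the choice.

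**Figure D1:**
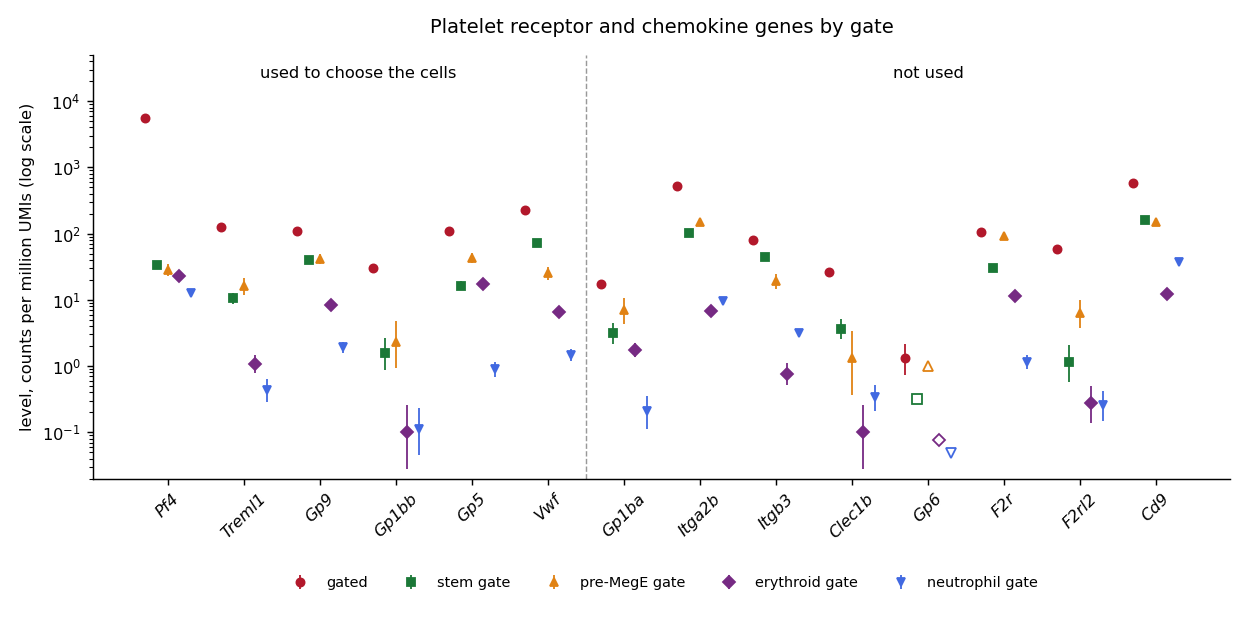
Levels of 14 platelet genes (CPM, log axis) in gated cells and in the stem, pre-megakaryocyte-erythroid (pre-MegE), erythroid and neutrophil gates, points with exact Poisson 95% intervals and open symbols at the floor of 3 UMIs where no UMI was found. Gated cells had the highest point for each of the 14 genes, with Pf4 at 5628 CPM, and F2r in the pre-MegE gate (93.3 CPM) came close to the gated cells (104.9 CPM).

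The surface receptors that the gate did not use were mostly higher as well. Of 30 listed receptors 26 were measured at 50 or more UMIs, and 20 of these were past 2-fold higher, 3 past 2-fold lower and 3 neither, where 11.8% of all genes were past 2-fold higher. The median ratio was 6.08, against 1.11 over all genes, and the summed level was 2488 CPM against 614 CPM, a ratio of 4.05 (3.997 to 4.11). Without Cd63, which had the most UMIs over both groups, the summed ratio was 6.70 (6.60 to 6.80). Itga2b, the alpha subunit of the fibrinogen receptor and the classical CD41 antigen, was at 528 CPM against 29.4, and was detected in 98.0% of gated cells with a median of 8 UMIs. Its partner Itgb3 was at 79.5 CPM against 6.34. Cd9, a tetraspanin abundant on platelets, was at 574 CPM against 52.6. Gp1ba, the ligand-binding subunit missing from the gate, was at 17.4 CPM against 1.27, a ratio of 13.8 (11.2 to 16.9). Clec1b, the podoplanin receptor CLEC-2, was at 26.4 CPM against 0.761, although its span overlaps Clec9a on the same strand. Cd63, a granule membrane protein that many cells use, was at 262 CPM against 282.

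Receptors for soluble platelet agonists were present in part. F2rl2, a thrombin receptor subunit (PAR3), had the highest ratio by the naming rule, which leaves out the gate genes. It was at 58.9 CPM against 0.605, or 97.4-fold (77.7 to 123.6), and was found in 41.9% of gated cells against 0.584% of neutrophil-lineage cells. F2r (PAR1) was at 104.9 CPM against 11.0, and F2rl3 (PAR4) at 22.1 against 5.16. Tbxa2r, the thromboxane receptor, was at 55.0 CPM against 4.90. For ADP, P2ry1 was at 30.9 CPM against 6.83, while P2ry12 had only 5 UMIs in the 611 cells (0.442 CPM). The receptors past 2-fold lower were Cd36 (0.265 CPM against 2.21), Entpd1 (0.796 against 2.26) and Ptgir, the prostacyclin receptor, with no UMI in gated cells against 0.847 CPM, all of them low in both groups.

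Several genes of mature platelets had few UMIs or lay in few cells. The collagen receptor Gp6 had 15 UMIs in gated cells, 10 cells holding 93.3% of them, and none elsewhere. Tubb1, the beta-tubulin of the platelet rim, had 5 UMIs and Myl9, a myosin light chain of platelets, had none, where 3 UMIs correspond to 0.265 CPM. Thbs1, thrombospondin, had 18 UMIs and Mpig6b 19. Ppbp, a further alpha granule chemokine, had 306 UMIs (27.1 CPM against 0.199), of which 40.2% lay in 10 cells.

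Granule cargo followed the receptors. Of 20 measured secreted and cargo genes 14 were past 2-fold higher and 2 past 2-fold lower, beside 11.8% and 9.16% of all genes, with a median ratio of 6.93. The summed level differed less, 3356 against 1896 CPM, with Srgn, the granule proteoglycan serglycin, at 1235 CPM against 1318 and a summed ratio of 3.67 without it in place of 1.77. Serpine2, protease nexin-1, was at 157.9 CPM against 10.5, Timp3, an inhibitor of metalloproteinases, at 81.1 against 1.45, Mmrn1, which binds factor V, at 176 against 16.0, Clu at 92.0 against 9.44 and Pdgfb at 20.7 against 0.847. The lower genes were F13a1, the coagulation factor XIII A subunit, at 16.5 CPM against 192.8, and Ccl5, with 1 UMI. F13a1 is also a monocyte gene, 76.3% of its gated UMIs lay in 33 cells with neutrophil transcripts described below, and without these it was at 4.27 CPM. Of 23 genes for granule formation and release 6 were past 2-fold higher and 0 lower, beside the same shares of all genes, with a median ratio of 1.44. Rab27b, a GTPase of dense granule secretion, was at 218 CPM against 6.70 and Slc35d3, needed for dense granules, at 28.1 against 0.648, whereas Vamp8, a fusion protein of many secretory cells, was at 381 against 311.

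Signalling proteins that act below the receptors were called past 2-fold higher for 21 of 41 genes and lower for 1, beside 11.8% and 9.16% of all genes. Their median ratio was 2.04, against 1.11 over all genes. Rap1b, the GTPase that activates the fibrinogen receptor, was at 1202 CPM against 124 and was detected in 99.5% of gated cells with a median of 18 UMIs. Plek, pleckstrin, a kinase substrate of platelets, was at 325 CPM against 25.4, Lat, the adaptor below the collagen receptor, at 90.6 against 10.01, Gnaz at 27.5 against 0.946, and Pde3a, the cyclic nucleotide phosphodiesterase, at 7.88 against 0.0356. Ptgs1 and Tbxas1, the enzymes that make thromboxane, were at 106.5 against 13.8 and at 88.3 against 14.3. Sh2b3, an adaptor that restrains thrombopoietin signalling, was past 2-fold lower, at 8.23 CPM against 16.8. Jak2, a kinase of cytokine receptors, was at 49.6 against 33.2, under 2-fold.

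Among 28 measured cytoskeletal genes 12 were past 2-fold higher and 1 lower, beside 11.8% and 9.16% of all genes. The median ratio was 1.76, against 1.11 over all genes. Tuba8, an alpha-tubulin, was at 102.7 CPM against 8.84, Arhgap6 at 76.0 against 11.8 and Vcl, vinculin, at 100.7 against 30.7, whereas Tmsb4x, the actin-binding thymosin, was at 7093 against 3855 and Flna, filamin A, at 80.6 against 83.4. Further genes among the 25 leading ones were Cavin2, a caveolar protein, at 439.8 CPM against 17.97, Myom1 at 69.5 against 2.11, Ehd3 at 100.1 against 4.03, Gucy1a1, a subunit of the nitric oxide receptor, at 63.0 against 2.42, Trpc6, a cation channel, at 78.1 against 5.04, Med12l at 93.8 against 6.57, Prkca at 108.2 against 9.97, Nrgn at 764.9 against 71.1 and Ache, the acetylcholinesterase long used to stain rodent megakaryocytes, at 62.4 against 6.49.

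Most transcription factors of the lineage were under 2-fold apart. Of 27 measured factors 8 were past 2-fold higher and 2 lower, beside 11.8% and 9.16% of all genes. The median ratio was 1.53, against 1.11 over all genes. Meis1, a homeodomain factor, was at 267 CPM against 51.5 and Fli1, the ETS factor of megakaryocytes, at 279 against 55.0. Zfpm1 (FOG1), the cofactor of GATA1, was at 339 against 94.1, and Gata2 at 261 against 75.4. Gata1 itself was at 44.7 CPM against 40.4, and Runx1 at 203 against 110.2. Klf1, the erythroid factor that opposes Fli1, was past 2-fold lower, at 11.3 against 90.6, as was Spi1 (PU.1) at 42.3 against 152. Ikzf1 (Ikaros) was at 51.7 against 102.1 CPM, just short of 2-fold.

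**Figure D2:**
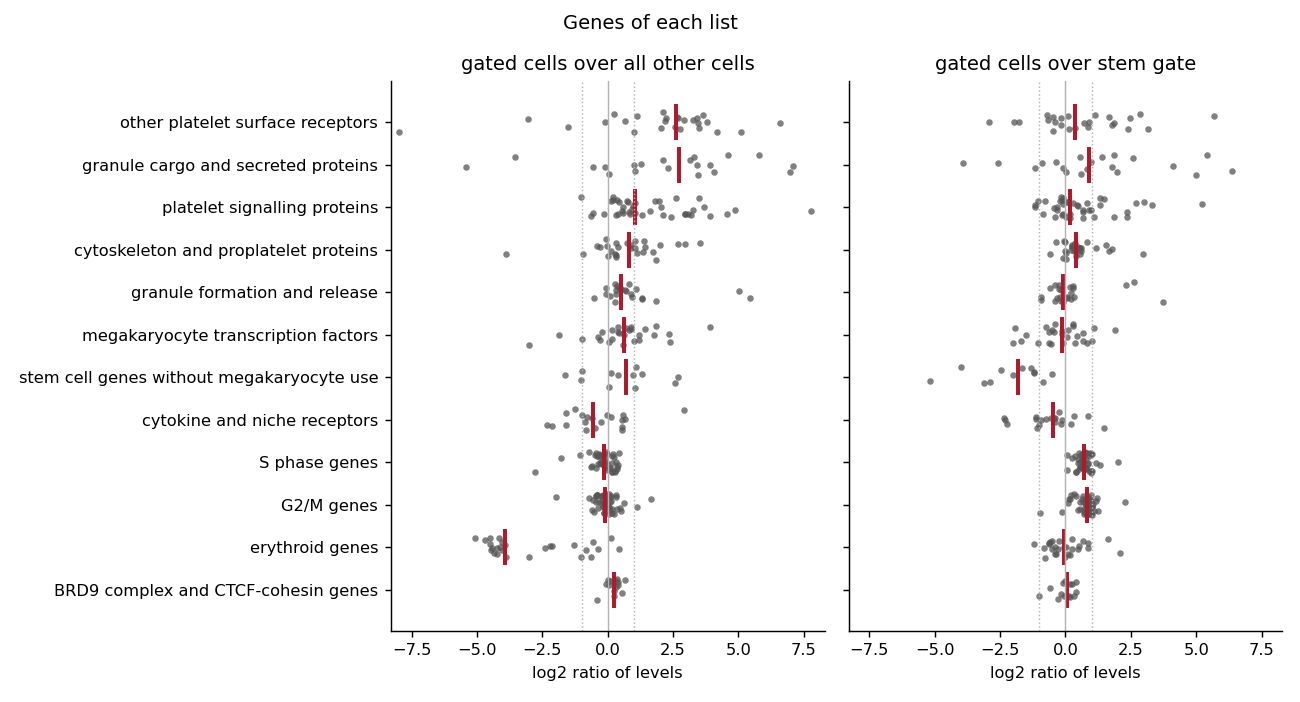
Log2 ratio of the level in gated cells to that in all other cells (left) and in the stem gate (right); each point is a measured gene, red bars are list medians, dotted lines mark 2-fold and ratios of 0 are drawn at the left edge. Against all other cells the receptor list has a median ratio of 6.08 and the erythroid list 0.0650; against the stem gate the receptor median is 1.29 and that of stem genes 0.283.

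The erythroid programme was low. None of 27 measured erythroid genes was past 2-fold higher and 21 were past 2-fold lower, where 9.16% of all genes were, and the median ratio was 0.0650. Ermap, an erythroblast membrane protein, was at 5.13 CPM against 117, Rhd at 4.25 against 109.2, the beta-globin gene Hbb-bs at 19.6 against 368 and the transferrin receptor Tfrc at 21.7 against 116. Epor, the erythropoietin receptor, was at 16.5 against 29.1, under 2-fold. The other lineages were low as well: past 2-fold lower than in all other cells were 16 of 17 neutrophil and monocyte genes, 12 of 12 basophil, mast cell and eosinophil genes and 10 of 17 lymphoid and dendritic genes, and 0 were higher, while of 10 macrophage, endothelial and stromal genes 2 were higher and 2 lower. Since Car1 was limited by the gate and the erythroid cells are among the other cells, this contrast also holds what the gate removed. Globin transcripts were near their level in the stem gate, where Hbb-bs was at 24.2 CPM.

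The nearest groups within the library were set by 3 further gates, each without the gated cells. The stem gate held 939 cells with at least 2 of Hlf, Mecom, Procr, Mllt3 and Fgd5 and under 3 UMIs each of Mpo, Car1 and Pf4, at a median of 8852 UMIs. The pre-megakaryocyte-erythroid gate held 238 cells with Gata1 and Gata2, under 3 Pf4 and under 20 Car1 UMIs and few granule transcripts, at a median of 11424 UMIs, and shared 76 cells with the stem gate. The erythroid gate held 1228 cells with at least 20 Car1 UMIs, at a median of 32810 UMIs. Depth therefore differed between the gates, and Pf4 was capped by definition in the first 2.

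Against the stem gate the platelet genes separated into shared and added ones. Only 3.48% of genes were past 2-fold higher in gated cells, and 12.6% were past 2-fold lower. Of the 26 receptors 9 were higher and 3 lower, with a median ratio of 1.29 beside 0.929 over all genes. Shared with the stem gate at under 2-fold were Selp, the granule adhesion receptor P-selectin (69.6 CPM against 92.5), Esam (60.6 against 83.6), Itga6 (159 against 150.5), Tbxa2r (55.0 against 29.8), Itgb3 (79.5 against 44.3) and, among cargo, Mmrn1 (176 against 172). Added in gated cells were F2rl2 (58.9 against 1.16), Serpine2 (157.9 against 1.90), Ppbp (27.1 against 0.632), Itga2b (528 against 102), Rap1b (1202 against 187), Rab27b (218 against 43.7), Plek (325 against 64.2), Ache (62.4 against 4.42) and Mfsd2b, a sphingosine-1-phosphate exporter (108.3 against 11.4). The gate genes were likewise graded: Vwf was at 230.5 against 72.1 CPM and Gp9 at 108.6 against 39.9, whereas Treml1 was at 125 against 10.5 and Gp1bb at 30.4 against 1.58.

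Genes of stem cells were the other side of that contrast. Of 12 stem cell genes, a list meant to leave out genes of megakaryocyte use, 10 were past 2-fold lower than in the stem gate. The cells of that gate were chosen by 4 of them, Hlf, Procr, Mllt3 and Fgd5. The summed level was 473 CPM against 1644. Procr, the protein C receptor, was at 2.65 CPM against 96.4, Ly6a, the Sca-1 antigen, at 6.64 against 106.9, and Hlf, a stem cell transcription factor, at 49.5 against 428. Myof, Sult1a1, Alcam, Ltb and Nkx2-3, which the stem gate did not use, were also among the 10 with the lowest ratios, Sult1a1 at 4.07 CPM against 101.2. Mycn, at 61.2 against 88.1, and Hoxb5, at 14.6 against 26.4, were not past 2-fold. Ctla2a was at 707 CPM against 688 and Angpt1, angiopoietin-1, at 332 against 432, both listed as stem cell genes in general. Against all other cells the summed list of 12 was 1.35-fold higher (1.31 to 1.39), but as the mean of per-cell values, in which shallow cells count as much as deep ones, it was at 0.968, so that no direction holds against all other cells.

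Against the pre-megakaryocyte-erythroid gate 3.08% of genes were past 2-fold higher and 4.71% past 2-fold lower. Of the 26 receptors 12 were higher and 0 lower, at a summed 2488 CPM against 1161. F2r (104.9 against 93.3 CPM) and Gata2 (261 against 349) were under 2-fold apart, while Serpine2 was at 157.9 against 5.33, Timp3 at 81.1 against 4.33, Slpi, a protease inhibitor, at 81.6 against 3.00 and Myom1 at 69.5 against 8.67. Of the gated Slpi UMIs 37.3% lay in the 33 cells with neutrophil transcripts described below, and without these cells Slpi was at 56.1 CPM. Of 27 erythroid genes 19 were lower, among them Klf1 (11.3 against 79.7) and Ermap (5.13 against 54.0), and Gata1 was at 44.7 against 128.7. Cd69 was at 49.6 against 280 CPM. Gata1 and Gata2 were used to choose that gate.

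Against the erythroid gate 30.1% of genes were past 2-fold higher and 6.54% past 2-fold lower, with a median ratio of 1.32 over all genes. Of the 26 receptors 23 were higher and 1 lower. Cavin2 was at 439.8 CPM against 2.76 and Trpc6 at 78.1 against 0.434. All but 1 of the 27 erythroid genes were lower. Gp5 was at 17.3 CPM in the erythroid gate and was found in 32.8% of its cells, against 1.82% of neutrophil-lineage cells, and P2ry1 was at 12.2 CPM there against 3.47 in the stem gate.

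Genes of the dividing cell were near the level of all other cells and above that of the stem gate. The summed level of 44 S phase genes was 4337 CPM, against 4839 in all other cells and 2731 in the stem gate, and that of 52 G2/M genes was 6705 CPM, against 7598 and 4070. Together they were at 0.888 of all other cells (0.883 to 0.893), and at 0.993 by the mean of per-cell values. Against all other cells no S phase gene was past 2-fold higher and 3 were lower, and 2 G2/M genes were higher and 1 lower. Mki67 was at 356 CPM against 385 and Top2a at 361 against 382. Among genes of cytokinesis and endomitosis, the cell cycle without division by which megakaryocytes become polyploid, 5 of 30 were past 2-fold higher and 3 lower, shares near the 11.8% and 9.16% of all genes. The lower ones were Ect2, the activator of RhoA at the cleavage furrow (6.02 CPM against 23.7), Myh10, a non-muscle myosin whose silencing accompanies polyploidization (3.01 against 22.2), and Ccne1, cyclin E1 (7.26 against 49.8). Ccne1 was at 140.6 CPM in the erythroid gate and 6.11 in the stem gate, whereas Ect2 was at 20.7 CPM in the pre-megakaryocyte-erythroid gate, 20.5 in the neutrophil gate and 11.8 in the stem gate, the last just short of 2-fold. Without the 33 gated cells with neutrophil transcripts described below, Ect2 was at 4.17 CPM in gated cells, so that this shortfall rests on them. Higher were the D cyclins Ccnd1 (100.2 against 41.8) and Ccnd2 (304 against 126.6), the inhibitors Cdkn1a (37.9 against 15.7) and Cdkn2d (90.3 against 38.3), and Arhgef2 (119 against 58.9). Of the 428 Cdkn1a UMIs 56.3% lay in 10 cells, against 7.54% of the Cdkn2d UMIs. Ckap2l, a spindle protein, was at 131.7 CPM against 42.0.

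**Figure D3:**
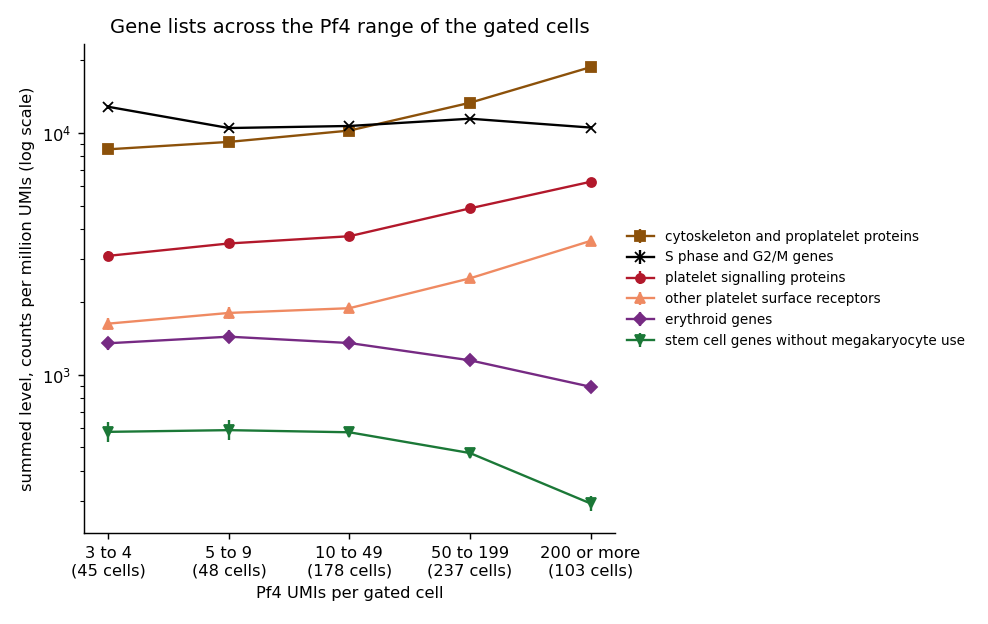
Summed level of 6 gene lists (CPM, log axis) in gated cells binned by Pf4 UMIs per cell, with exact Poisson 95% intervals. Receptor genes go from 1625 CPM at 3 to 4 Pf4 UMIs to 3571 CPM at 200 or more, stem genes from 580 to 293 CPM, while S phase and G2/M genes stay between 10457 and 12800 CPM.

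Within the gated cells Pf4 was a range and not a step. The 611 cells were cut into terciles by Pf4 per UMI, with medians of 734, 3891 and 9780 CPM of Pf4. Median depth was 15132, 17142 and 20173 UMIs. In the upper against the lower tercile 1.58% of all genes were past 2-fold higher and 6.45% past 2-fold lower. Of the 26 receptors 9 were higher and 1 lower, and their summed level was 1697, 2303 and 3325 CPM from the lower to the upper tercile, a ratio of 1.96 (1.90 to 2.02) between the ends. Signalling genes were past 2-fold higher for 12 of 41 and lower for 0. No transcription factor of 27 was past 2-fold higher and 5 were lower: Gata2 was level at 265, 252 and 264 CPM and Fli1 was at 220, 268 and 338, while Erg was at 52.0, 39.9 and 16.5, Hoxa9 at 42.0, 16.0 and 9.96, and Spi1 at 67.7, 43.1 and 19.9. Of the Spi1 UMIs 34.5% lay in 33 cells with neutrophil transcripts described below, and the ratio of the upper to the lower tercile was 0.294 with them and 0.409 without.

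Several platelet genes differed widely along the Pf4 range. Ppbp was at 3.72, 10.3 and 61.9 CPM in the lower, middle and upper tercile, Clec1b at 4.57, 16.0 and 54.2, F2rl2 at 11.1, 43.7 and 113, and Serpine2 at 29.1, 109.6 and 311. Mrvi1, a substrate of cyclic GMP signalling in platelets, was at 2.29, 19.8 and 52.7 CPM, Gnaz at 8.86, 11.4 and 57.8, and Pde3a at 0.286, 3.26 and 18.5. The lowest Pde3a value is under the floor of 3 UMIs. Of the gated UMIs, 10 cells held 38.2% for Pde3a, 30.5% for Clec1b, 27.5% for Mrvi1 and 24.1% for Gnaz, against 15.0% for F2rl2 and 13.8% for Serpine2. The 2 adhesion receptors Selp and Esam differed less, Selp at 52.6, 73.0 and 81.1 CPM, and Esam at 60.9, 61.0 and 60.0. Stem genes went the other way for 7 of 12, past 2-fold lower, at a summed 582, 507 and 350.5 CPM, with Hlf at 69.5, 53.2 and 29.1 and Ly6a at 15.7, 4.34 and 0.971. Ly6a had only 75 UMIs in the gated cells, 10 cells holding 42.7% of them, against 15.2% of the 559 Hlf UMIs. Kit was at 173, 130.8 and 75.8 CPM and Myb at 278, 252 and 155. The S phase genes were level, at 4398, 4367 and 4259 CPM with 0 of 44 past 2-fold in either direction, and Ckap2l was at 67.7, 113 and 203. Ect2 was at 10.9, 5.97 and 1.94, and although 36.8% of its 68 UMIs lay in the 33 cells with neutrophil transcripts, the ratio of the upper to the lower tercile was 0.179 with them and 0.169 without.

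**Figure D4:**
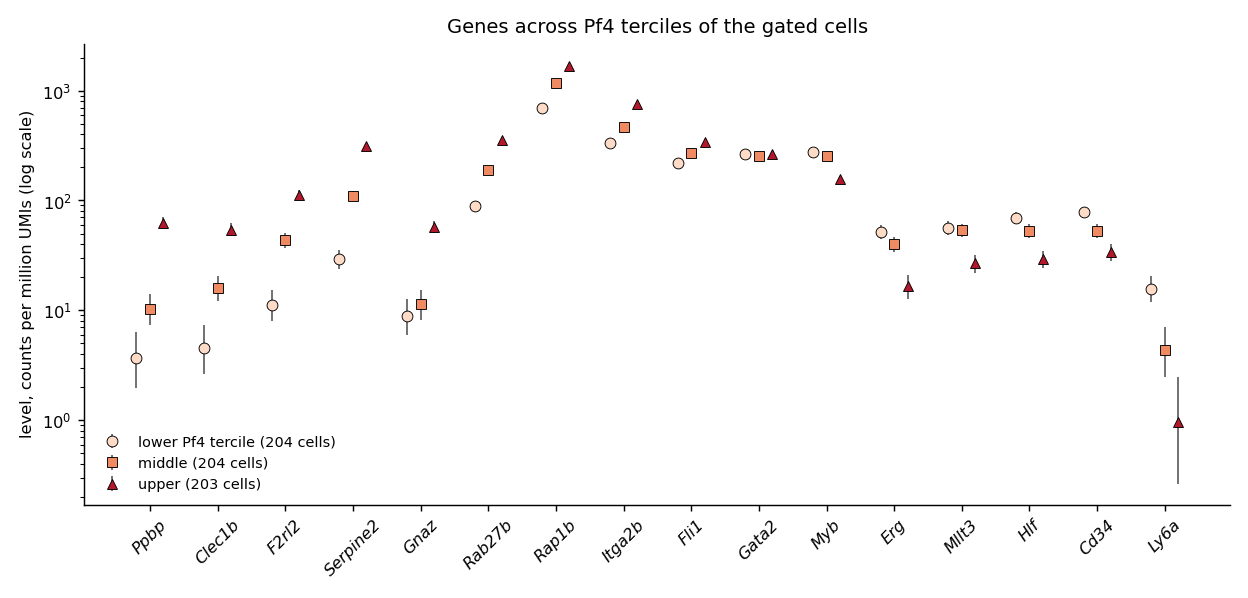
Levels of 16 genes (CPM, log axis, exact Poisson 95% intervals) in the lower, middle and upper Pf4 tercile of the gated cells. Ppbp, Clec1b, F2rl2 and Serpine2 differ by more than 10-fold between the ends, and Gata2 is level near 265 CPM. Ly6a, with 75 UMIs in all gated cells, is at 15.7 CPM in the lower and 0.971 in the upper tercile.

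The gated cells were not pure. In 33 of them Elane and Mpo were both at 10 or more UMIs. These 33 had a median of 31530 UMIs, 17 of them were doublet calls, and the summed level of 19 neutrophil and monocyte genes was 19963 CPM in them against 445 CPM in the other 578 cells, whose level was under that of the stem gate (981.5). They held 93.5% of the Elane UMIs of the gate. Their receptor level was 1127 CPM against 2619. Of the 33 cells 18 lay in the lower, 14 in the middle and 1 in the upper tercile. Neutrophil and monocyte genes were at 3617, 2569 and 572 CPM in the same order, with 16 of 17 past 2-fold lower in the upper against the lower tercile. Without the 33 cells the tercile ratio of Elane was 0.987 instead of 0.132, that of Mpo 0.868 instead of 0.153, that of Irf8, a monocyte and dendritic cell factor, 0.133 instead of 0.0918, the receptor ratio between terciles was 1.81 and the stem gene ratio 0.554. Elane, Mpo and Ctsg were among the 10 genes with the highest ratio against the stem gate, and without the 33 cells Elane was at 36.3 CPM against 42.0 in the stem gate, Mpo at 91.2 against 49.3 and Ctsg at 68.7 against 29.7. Basophil transcripts were more concentrated still: 7 cells held 94.2% of the UMIs of Mcpt8 and Prss34, and Prss34 was at 6.86, 419 and 105 CPM over the terciles. Of 3 endothelial marker genes Cdh5 had no UMI, while Kdr had 85 and Emcn 33, and the list summed to 10.4 CPM against 2.67 in all other cells and 24.4 in the stem gate. Of 3 stromal marker genes Lepr and Cxcl12 had no UMI and Col1a1 had 3, and the 4 macrophage genes summed to 15 UMIs. Doublet calls made up 5.07% of gated cells and 3.37% of all other cells. The part of mixed barcodes in the remaining differences was not tested beyond these values.

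**Figure D5:**
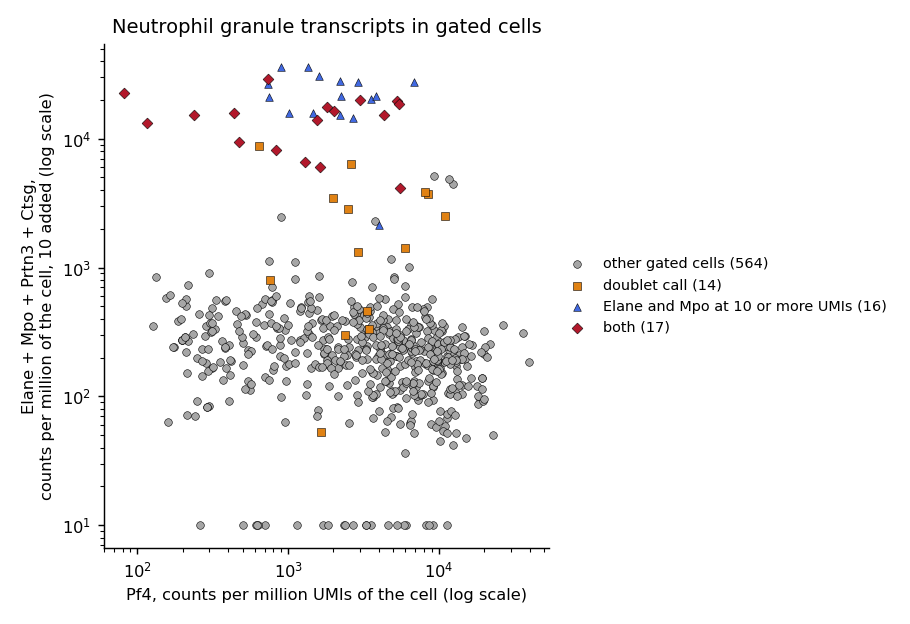
Summed neutrophil granule transcripts (Elane, Mpo, Prtn3 and Ctsg, CPM of the cell, 10 added) against Pf4 (CPM of the cell) for the 611 gated cells, both on log axes. The 33 cells with Elane and Mpo at 10 or more UMIs sit mostly at the top, 17 of them doublet calls; 564 cells are neither.

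Among cytokine and niche receptors 1 of 20 was past 2-fold higher than in all other cells and 5 were lower, beside 11.8% and 9.16% of all genes. Tek, the receptor of angiopoietin-1, was the higher one, at 13.8 CPM against 1.81, beside Angpt1 at 332 against 67.2. Lower were Csf2rb (5.93 against 30.1), Flt3 (5.84 against 25.7), Csf3r, Il6st and Ifngr1 (49.02 against 149). The 33 cells with neutrophil transcripts held 52.2% of the gated UMIs of Csf2rb, 35.6% of Csf3r and 35.2% of Ifngr1. Without these cells Csf2rb was at 3.105 and Ifngr1 at 34.8 CPM. Of 17 interferon-stimulated genes 4 were higher and 1 lower, beside the same shares of all genes, and without Ifitm3, which was at 834 CPM against 264, their summed ratio was 0.989 (0.952 to 1.03). None of 14 genes of the BRD9-containing complex, CTCF and cohesin was past 2-fold in either direction, with Brd9 at 28.9 CPM against 30.4 and in the stem gate at 29.4.

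Across the lower Pf4 edge of the gate the receptor level was gradual, while transcripts of other lineages differed. At this edge 29 cells held exactly 3 Pf4 UMIs and 42 cells were kept out at 2 while meeting the other limits. The summed receptors were at 1694 CPM in the 29 and 1589 CPM in the 42. Basophil, mast cell and eosinophil genes were at 144.7 against 1828 CPM, and neutrophil and monocyte genes at 485.5 against 1927 CPM. With 2 receptor genes detected 123 cells were inside, with a median of 15 Pf4 UMIs, and 51 cells with Pf4 at 3 or more and 1 receptor gene were outside. All 5 receptor genes were found in 125 cells, with a median of 195 Pf4 UMIs and of 23035 UMIs in all, against 14073 for cells with 2, so that the number of receptors detected moved with depth and the part of depth in it was not tested. The Car1 limit kept out 12 cells, of which 6 were doublet calls and 7 had Elane and Mpo at 10 or more UMIs. Gated on counts thinned to 5000 UMIs, the share of cells was 4.62% in place of 7.99%, and the receptor ratio over all other cells was 4.35.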

How the data were processed

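The deposited values are UMI counts per gene and barcode of 1 library of Lin-Kit+ bone marrow cells; the authors made them with a 10x Chromium 3′ kit and, using mm10, Cell Ranger 6.0.2, and the matrix holds barcodes that their own cell filter removes. The counts are whole numbers and not normalized. The labels also describe a bulk RNA kit, which the form of the matrix does not bear out. Cells with deleted Brd9 were not used here.

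Cells had to lie between 1000 and 50000 UMIs and between 1000 and 6500 genes, with a mitochondrial share below 7%, as in the study. This kept 7645 of 8817 barcodes, with 1592 to 49991 UMIs each. Scrublet (scanpy 1.11.5, 6% of cells assumed to be doublets) marked doublets, which stayed in the main values. Counts were summed over gates, which overlap in part, and compared as CPM ratios with exact conditional binomial 95% intervals, levels with exact Poisson and shares with exact Clopper-Pearson intervals (scipy 1.17.1), all for counting error only. UMIs mark molecules, but cells of 1 library are not replicates, so no p-values were computed. A seeded simulation of the gated against other comparison over 13479 genes, with 200 genes changed, recovered 94% of 3-fold and 99% of 4-fold changes and called 57 unchanged genes. It drew Poisson counts for the group sums, as the intervals assume. It therefore checks the arithmetic of the calls and not the spread of UMIs between cells.

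Named genes are those of the gate, the 25 highest and 10 lowest ratios, and list members needed for a role. For the further contrasts the 10 highest and lowest ratios were used. Ratios were ranked with 1 CPM added, at 50 CPM or more, with gate genes, mitochondrial genes and unnamed models left out. Some genes are not reported here by name. Of 464 list genes in 20 lists, 461 were found. The members and lists were chosen with earlier results of these data known. Coordinates are from GENCODE M21 (GRCm38), promoters from RefSeq (GRCm38.p6). Alternatives concerned the cell filter, doublets, thinning, the gate's limits, the total, per-cell means, the UMI minimum and, added after seeing the data, the cells with neutrophil transcripts.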

Additional observations from a re-analysis of the deposited data

Results flagged for a closer look

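Barcodes that the cell filter removed also held cells of this kind. Of 213 barcodes above the upper limits on UMIs or genes, 22 met the gate, or 10.3% (Clopper-Pearson interval 6.59 to 15.2), against 7.99% of the cells kept. They were set apart because they lie in data that the comparisons do not use. Their median was 41723 UMIs and 196 Pf4 UMIs, with a highest of 804, the summed receptor level was 2166 CPM, and 5 of the 22 had Elane and Mpo at 10 or more UMIs. Pf4 was at 5110 CPM and Ppbp at 16.9 CPM. Of the other 959 barcodes removed, 12 met the gate (1.25%).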

How the results depend on the processing

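Values come from 1 library, and cells are not replicates, so the intervals cover counting error only and no change of condition was measured. Depth limits genes near 3 UMIs, which is 0.265 CPM in the gated cells. No paired analysis was possible because there was 1 sample. Of 74 values recomputed over 8 results and 11 alternatives, 38 were labelled the same, 35 moved and 1 changed direction. A share or ratio was the same when it lay within the counting interval of its main value. Counts of genes past 2-fold have no interval and were held to a set fold difference instead. The summed ratio of the 12 stem cell genes over all other cells changed direction, from 1.35 to 0.968, with the mean of per-cell values, and the cause was not tested. With that mean, 1056 genes were past 2-fold higher in place of 1588, the receptor ratio was 3.07 in place of 4.05, the ratio of S phase and G2/M genes 0.993 in place of 0.888 and the receptor ratio between terciles 1.80 in place of 1.96. With at least 500 UMIs per gene, which tests fewer genes, 754 were higher and 730 lower.

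The share of cells, 7.99%, was 4.62% with thinned counts, 6.78% with Pf4 at 10 or more and 6.38% with 3 or more receptor genes. In that order of gates, the receptor ratio was 4.35, 4.16 and 4.22, the stem gene ratio 1.18, 1.296 and 1.31, the ratio of S phase and G2/M genes 0.868, 0.882 and 0.897, and the receptor ratio between terciles 1.77, 1.90 and 1.83. A stricter cell filter gave 4.12 for receptors, 1.5 for stem genes and 0.896 for S phase and G2/M genes. Removing doublet calls gave 4.22 for receptors, 1.40 for stem genes and 1.83 for receptors between terciles. Without a Car1 limit the receptor ratio was 3.97, and 2.02 between terciles. Totals without mitochondrial, ribosomal protein, haemoglobin and gate genes gave 0.878 for S phase and G2/M genes. Leaving out the 33 cells with neutrophil transcripts gave 4.24 for receptors, 1.41 for stem genes, 0.897 for S phase and G2/M genes, and 1.81 and 0.554 for receptors and stem genes between terciles.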
